A study of Mus musculus with 2 samples.

Results

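A total of 210 NELF-B regions of ordinary to raised height had their summit close to one edge, out of 9095 regions in the list and out of 3591 regions in the same range of height. They were chosen by 2 measured values of the same list, the summit height and the position of the summit within the region. Heights had to be 45 to 92, and the summit had to lie in the first 25% or the last 25% of the width. Of these 210 off-centre regions, 130 had the summit near the left edge, the lower coordinate, and are called left-skewed. The other 80 had it near the right edge and are called right-skewed. Regions in the same range of height with a summit at 40% to 60% of the width, called centred, served for comparison and numbered 1764. A further 1617 regions lay between these limits. The range of heights is not the middle of the list, since 50.5% of all regions were lower than 45 and 10.0% were higher than 92.

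The list comes from chromatin immunoprecipitation followed by sequencing of mouse embryonic fibroblasts, connective tissue cells grown from an embryo. The embryo carried a floxed Nelf-b allele over a null allele (Nelf-b f/-), and its strain background was a mix of 129/SvJ, C57BL/6 and FVB. The cells were cycling without synchronisation in medium with 10% serum. They were fixed in 1% formaldehyde for 15 min, and the labels name no other agent given to the cells. A purified polyclonal antibody against NELF-B was used for 1 library, and an input library of the same cells contributed no values. With 1 library and no replicates, no height, edge or summit has a replicate error, and sequencing depth is unknown.

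The negative elongation factor, of which NELF-B is one subunit, acts with the factor DSIF to hold RNA polymerase II shortly after it has begun a transcript. Release of the paused polymerase needs the kinase P-TEFb. Paused polymerase sits just downstream of a transcription start, and many mammalian promoters start transcripts in both directions, so that a pausing factor can be found on either side of a promoter. Left and right in the list are map directions and not directions of transcription. The coordinates of the list could not be matched to the gene table at hand, so no gene, strand or sequence is given for a region, and which gene each region belongs to was not analysed here.

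Off-centre summits were uncommon and formed the tails of a single broad distribution. In the range of height used, 5.85% of regions were off-centre (exact Clopper-Pearson 95% interval 5.10 to 6.67), 49.1% were centred and 45.03% lay between. These shares follow from the limits set and are given as a description. Relative to width, the summit nearest to a left edge was on chromosome 10 from 79610876 to 79612879, at 8.23% of the width, and the one nearest to a right edge was on chromosome 18 from 75525979 to 75527227, at 86.3%. Most members were far less extreme, with a median of 22.0% among left-skewed regions and 77.3% among right-skewed ones. The histogram of summit positions shows no gap at the limits. Just inside the left limit were regions on chromosome 8 from 73795696 to 73797622 at 24.96% and on chromosome 11 from 100180508 to 100182324 at 24.93%. Just outside it were regions on chromosome 11 from 85165692 to 85167247 at 25% and on chromosome 15 from 5193712 to 5195313 at 25.03%. At the right limit, regions at 75.018% (chromosome 6, 128305051 to 128306423) and 75.021% (chromosome 9, 3334579 to 3335791) were members. Regions at 74.99% (chromosome 11, 97563460 to 97565226) and 74.92% (chromosome 9, 20779639 to 20781616) were not. For height, the lowest members reached 45, as on chromosome 10 from 62113111 to 62114958 and from 62254776 to 62255824. Off-centre regions of height 44 on chromosome 14 from 26197040 to 26198876 and on chromosome 15 from 76455073 to 76457139 fell outside. At the upper limit the tallest members reached 91 and 90, and the next off-centre regions, on chromosome 3 from 137526673 to 137527816 and on chromosome 1 from 127330708 to 127333120, reached 95 and 96.

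**Figure D1:**
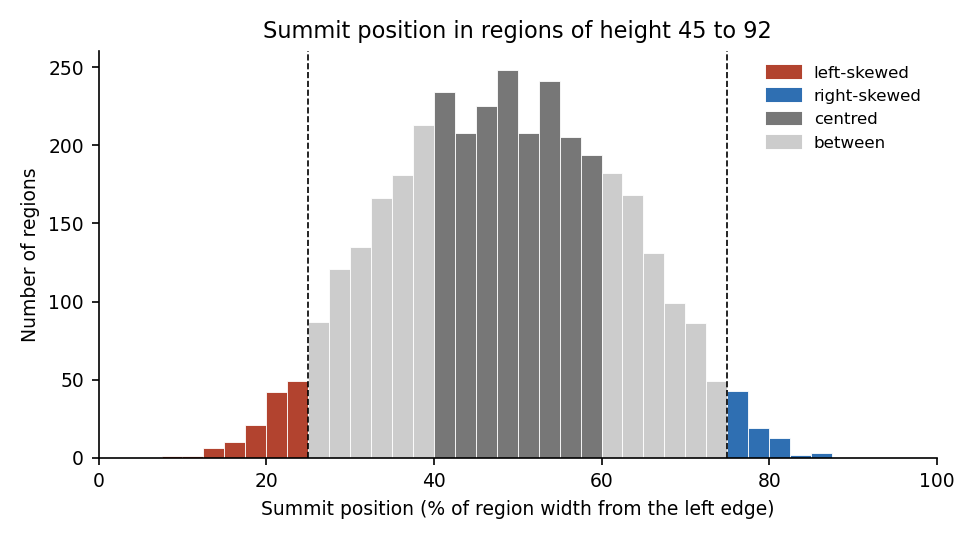
Number of regions of height 45 to 92 (vertical axis) by summit position as a percentage of the region's width from its left edge (horizontal axis), in steps of 2.5 percentage points, with dashed lines at 25% and 75%. Off-centre regions (130 left-skewed in red, 80 right-skewed in blue) form the tails of a distribution that peaks near the middle and has no break at the limits.

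More members were skewed left than right. The left-skewed share was 61.9% (130 of 210, exact 95% interval 54.97 to 68.5), and left exceeded right on 14 of the 20 chromosomes, with 4 the other way and 2 even. Off-centre regions at other heights also leaned left. The left-skewed share was 59.9% (164 of 274, 53.8 to 65.7) at heights under 45. Over 92 it was 59.3% (32 of 54), with an interval that included 50%. Among all 3591 regions of height 45 to 92, the summit lay left of the middle in 54.2% (52.6 to 55.9). Whole-list summits were displaced in the same direction by a small distance. In regions of height 45 to 92 the median summit lay 17.5 bp left of the middle of its region, at 48.4% of the width, and over the whole list it lay 14 bp left. Of the members, 209 of 210 summits were on positions that are multiples of 16 bp, as were 99.0% of all summits. Summit positions are therefore resolved to no better than that step. When every summit was moved 8 bp to the right, 119 regions were left-skewed and 87 right-skewed, a left share of 57.8% (50.7 to 64.6). A move of 16 bp gave 103 and 91, or 53.1% (45.8 to 60.3). With limits set 25 percentage points either side of the median position, 96 were left-skewed and 101 right-skewed, or 48.7% (41.6 to 55.9). All 3 changes were chosen after the displacement was seen. The median position has equal numbers of the 3591 regions on either side by construction, although this does not fix the numbers beyond the limits. The changes therefore describe how far the balance follows the placing of the summits and do not test it. From the deposited positions onward, the left share went from 61.9% to 57.8%, 53.1% and 48.7% in these settings, which draw on the same 3591 regions. The interval lay above 50% as deposited and after the move of 8 bp, and included 50% in the other settings.

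Off-centre regions were wide because their long side was long, while their short side was shorter than in centred regions. Width is part of the rule that chose the members, so the following lengths describe them and are not tested. The median width was 1699.5 bp in left-skewed regions (quartiles 1329 and 2004 bp) and 1807 bp in right-skewed regions (quartiles 1368 and 2112 bp), against 1118 bp in centred regions (quartiles 976 and 1312 bp). Over both directions the median was 1748 bp, or 1.56 times the centred median (exact binomial interval of the members' median, over the centred median, 1.44 to 1.65). Widths in the 2 directions could not be told apart, since the interval of the left-skewed median, 1592 to 1825 bp, overlapped that of the right-skewed median, 1567 to 1916 bp.

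From the summit to the far edge, the members extended a median of 1350 bp (interval 1268 to 1438 bp), which is 728 bp more than the 622 bp of the longer side of centred regions. To the near edge they extended a median of 371.5 bp (356 to 396 bp), or 0.747 of the 497 bp of the shorter side of centred regions. A long side above the upper quartile of centred regions, 727 bp, was found in 201 of 210 members. A short side below the centred median was found in 195 of 210, and below the centred lower quartile of 448 bp in 153. The remaining 15 members had a short side of at least the centred median. The labels give shearing to 300 to 500 bp and a library size of 175 to 225 bp. Short sides of members, from 156 to 733 bp, are on the scale of these fragments, which limits how finely they can be read. Among 29 members the long side exceeded the longest side of any centred region, 1729 bp. Regions between the off-centre and the centred limits were intermediate. Their median long side was 852 bp, their median short side 454 bp and their median width 1313 bp. In the plot of region extents the near edge also tends to lie farther out in members with a longer long side. The far edge moves by the larger distance, which follows from the rule and from the ordering of the bars by long side.

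**Figure D2:**
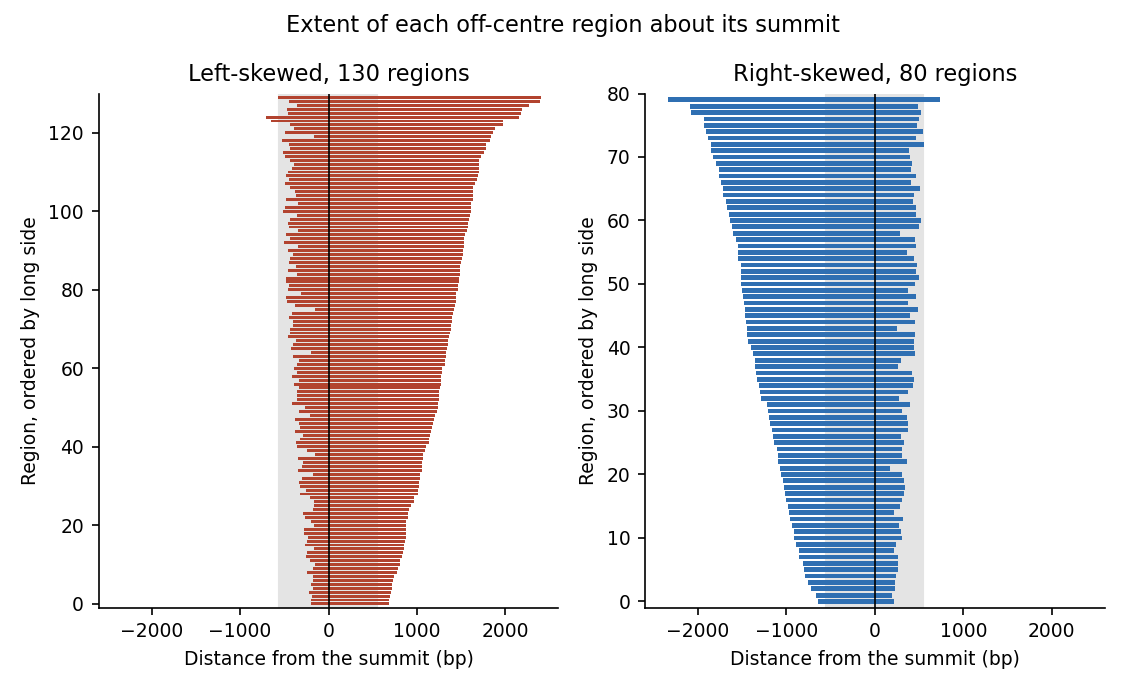
Each horizontal bar is 1 off-centre region, drawn from its left to its right edge in bp from its summit at 0, with the 130 left-skewed regions in red and the 80 right-skewed in blue, ordered from the shortest long side (bottom) to the longest (top). The grey band spans the median left and right sides of centred regions, 556 and 546 bp, and most near edges lie inside it while the far edges reach 645 to 2403 bp.

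Not all members were wide. Of the 210, 14 (6.67%) were at most 1000 bp wide, 29 were narrower than the median centred region, and 138 (65.7%) exceeded 1500 bp. Over all regions of height 45 to 92, 20.1% were at most 1000 bp wide and 23.5% exceeded 1500 bp. When the 3591 regions were ordered by width and cut into 5 classes of about equal number, the off-centre share was 1.94% in the narrowest class (372 to 1000 bp) and 2.78%, 1.95% and 4.33% in the next 3. It was 18.2% (exact 95% interval 15.5 to 21.3) in the widest class, from 1554 to 3267 bp, which held 131 members. Width is the denominator of the summit position, and no short side in this range of height was under 156 bp. The narrowest regions therefore could not be members, so the higher share in wide regions is in part set by the rule and is only a description. Left-skewed regions were the more numerous in 4 of the 5 classes, and in the class of 1151 to 1306 bp there were 7 of each. Among regions over 1500 bp wide, the members' median width was 1.14 times the centred median.

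**Figure D3:**
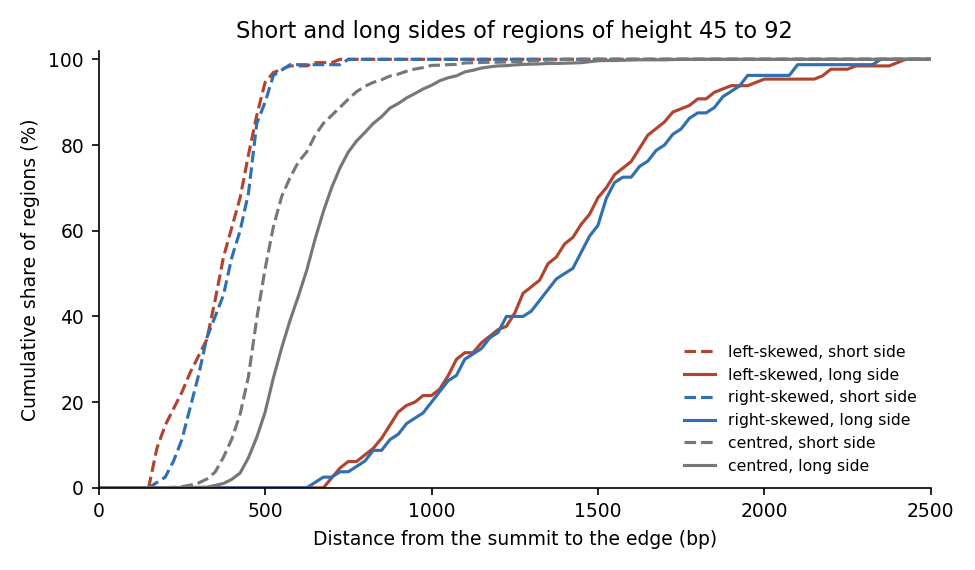
Cumulative share of regions (vertical axis, %) whose short side (dashed) or long side (solid) is at most the length on the horizontal axis (bp), for left-skewed (red), right-skewed (blue) and centred (grey) regions of height 45 to 92. The red and blue lines run close together, with median long sides of 1334 and 1391 bp against 622 bp in centred regions and median short sides of 361 and 384 bp against 497 bp.

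The widest left-skewed region lay on chromosome 7 from 16984231 to 16987203 and spanned 2973 bp. Its summit, at 16984800 with a height of 79, was 570 bp from the left edge and 2403 bp from the right edge, and the nearest region began 3.598 kb beyond its long side. The second was on chromosome 3 from 89221441 to 89224295, 2855 bp wide with a height of 66. Another, on chromosome 4 from 116228030 to 116230868, was 2839 bp wide and had its summit at 15.9% of the width. Each of these 3 had its nearest neighbour to the right, beyond the long side. Right-skewed regions reached a similar size. The widest member of all spanned 3072 bp on chromosome 6 from 86474910 to 86477981. Its height was 50 and its long side 2339 bp, and its nearest neighbour lay 36.9 kb away. It was followed by regions on chromosome 15 from 99648419 to 99651021, 2603 bp wide with a height of 87, and on chromosome 7 from 80761530 to 80764107, 2578 bp wide with a height of 63. Both had their nearest neighbour to the left, beyond the long side, at 14.0 and 20.6 kb.

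The 3 most lopsided regions in each direction were 1249 to 2004 bp wide. The median was 1748 bp in members and 1227 bp in all regions of height 45 to 92. On chromosome 10, the region from 79610876 to 79612879 had a height of 89, a left side of 165 bp and a right side of 1839 bp. On chromosome 5, from 37187715 to 37189292, the sides were 158 and 1420 bp, with the summit at 10.0% of the width, and on chromosome 2, from 24830300 to 24831828, they were 197 and 1332 bp. Their nearest neighbours lay on different sides, to the right for the first and to the left for the other two. Among right-skewed regions the extreme on chromosome 18 had a right side of 171 bp and a left side of 1078 bp. The following 2 were both on chromosome 3. The region from 61166969 to 61168858 stood alone, 1142 kb from the nearest other region, and the region from 138188795 to 138190494 had a neighbour 9.22 kb beyond its long side. These 6 regions had heights of 50 to 89, so the extreme positions were not limited to one end of the height range.

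Heights of members and centred regions were alike. The median height was 59.5 in left-skewed, 58 in right-skewed and 59 in centred regions. Over all members the ratio of medians was 1 (exact binomial interval 0.95 to 1.03), though the rule bounds both groups by the same limits. Tallest among left-skewed regions was the one on chromosome 3 from 157196754 to 157198169, at 91, followed by 2 at 90, on chromosome 10 from 127739729 to 127741695 and on chromosome 8 from 11008594 to 11009952. Right-skewed regions reached 90 on chromosome 4 from 43012145 to 43014139, 89 on chromosome 6 from 83070572 to 83072086 and 87 on chromosome 15 from 99648419 to 99651021. With the same limits on position, off-centre shares in other ranges of height were 6.58% (5.58 to 7.69) at 12 to 31, 5.40% (4.53 to 6.39) at 32 to 44, 6.20% (5.15 to 7.38) at 45 to 60, 5.46% (4.43 to 6.64) at 61 to 92 and 5.04% (3.62 to 6.80) at 93 to 200. Above 200 the share was 11.97% (6.70 to 19.3), from 14 of 117 regions, and its interval lay just above the interval of the members' own range, 5.10 to 6.67.

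Neighbours lay about as far from off-centre regions as from centred ones. Distances were taken from edge to edge on the same chromosome. The nearest other region was a median of 33.9 kb from left-skewed regions (exact binomial interval 23.4 to 50.4), 29.0 kb from right-skewed regions (23.4 to 42.4) and 32.03 kb from centred regions (29.7 to 35.0). A neighbour within 10 kb was found for 18 of 130 left-skewed regions, or 13.8% (exact 95% interval 8.42 to 21.0), and for 16 of 80 right-skewed regions, or 20% (11.9 to 30.4). Together this was 16.2% of members (11.5 to 21.9), against 18.8% of centred regions (17.0 to 20.7). Within 20 kb the shares were 35.7% (29.2 to 42.6) and 34.0% (31.8 to 36.3), and within 50 kb 62.9% (55.9 to 69.4) and 62.8% (60.5 to 65.1). Among regions over 1500 bp wide, 19.6% of members (13.3 to 27.2) and 21.2% of centred regions (16.5 to 26.6) had a neighbour within 10 kb. In narrower regions the shares were farther apart, 9.72% of members (7 of 72, 4.00 to 19.0) and 18.4% of centred regions (16.4 to 20.4). Measured from summit to summit, the shares within 10 kb were 12.4% of members (8.25 to 17.6) and 16.9% of centred regions (15.2 to 18.7). In all of these the intervals overlapped. Regions of 1 library are not replicates, and the intervals cover counting error only, so no p-values are reported.

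Local density was also alike. Within 500 kb of its midpoint on either side, a member had a median of 8 other regions (interval 7 to 10), and a centred region had 7 (7 to 8). Of the nearest neighbours, 65 of 210 were taller than the member beside them, or 30.95% (24.8 to 37.7), against 32.1% (29.9 to 34.3) beside centred regions. Neighbours had a median height of 46 beside members and 47 beside centred regions. The neighbours themselves had off-centre summits about as often as the list: 12 of 210, or 5.71% (2.99 to 9.77), had an off-centre summit at any height, against 5.16% (4.17 to 6.30) of the neighbours of centred regions and 5.92% of the whole list.

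Nearest neighbours lay on the long and the short side in shares that were within counting error of an even split. The long side of a left-skewed region faces right. There, 76 of 130 nearest neighbours, 58.5% (exact 95% interval 49.5 to 67.0), lay beyond the long side. The long side of a right-skewed region faces left, and 35 of 80, 43.8% (32.7 to 55.3), lay beyond it. Together 111 of 210 lay on the long side, 52.9% (45.9 to 59.8), an interval that includes an even split. With limits of 0.20 and 0.80 on summit position the right-skewed share was 61.1% (11 of 18, 35.7 to 82.7), on the other side of an even split. Restricted to neighbours within 10 kb, the share was 10 of 18 for left-skewed and 11 of 16 for right-skewed regions, or 61.8% together (43.6 to 77.8). Within 50 kb it was 56.8% (47.9 to 65.4). Seen by map direction, the nearest neighbour lay to the right of 57.6% of members (50.6 to 64.4), of 52.0% of centred regions (49.7 to 54.4) and of 50.1% of the whole list. The members' interval leaves out an even split and the share of the whole list, and overlaps that of centred regions. The share was 58.5% (49.5 to 67.0) in left-skewed and 56.3% (44.7 to 67.3) in right-skewed regions. The median gap was 60.2 kb on the long side (47.5 to 88.9) and 73.5 kb on the short side (51.6 to 92.3), with intervals that overlap.

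**Figure D4:**
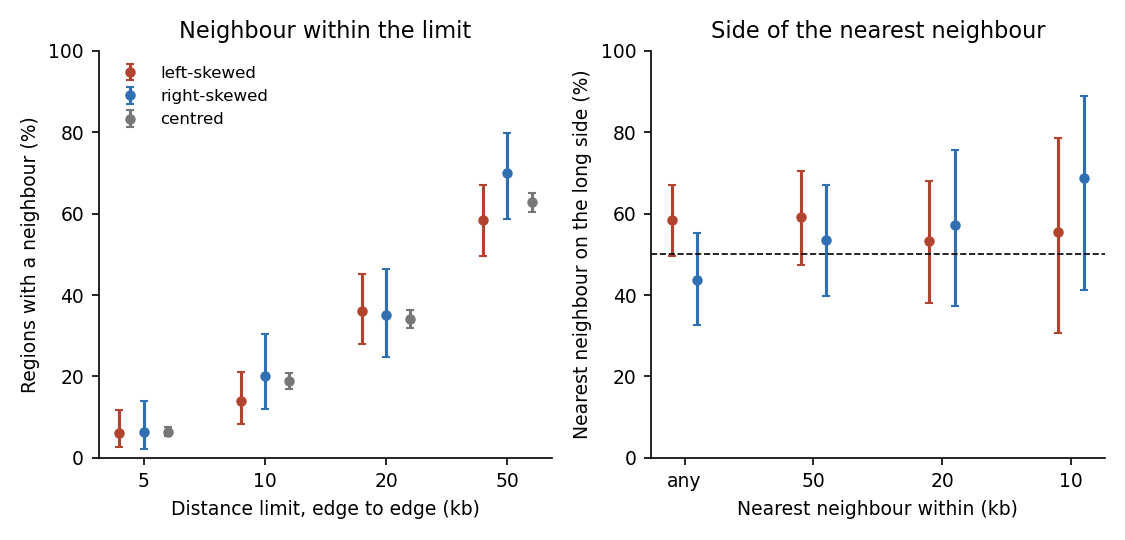
Left, share of regions (%) with another region within 5, 10, 20 or 50 kb, edge to edge, for left-skewed (red), right-skewed (blue) and centred (grey) regions of height 45 to 92. Right, share of members (%) whose nearest neighbour lies beyond the long side, at any distance and within 50, 20 and 10 kb, with a dashed line at 50%; bars are exact 95% intervals, and on the right all of them include 50%.

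Very short gaps were rare throughout the list. A neighbour within 2 kb was found for 1 of 210 members, or 0.476% (exact 95% interval 0.012 to 2.62), for 0.964% of centred regions (0.562 to 1.54) and for 0.880% of the whole list, with intervals that overlap. The 1 member was the wide region on chromosome 3 from 89221441 to 89224295. A region of height 103 followed 0.327 kb beyond its long side, and its summit lay at 64.7% of its own width. The next closest left-skewed regions had neighbours on the short side. These were on chromosome 9 from 63869337 to 63871491, with a region of height 65 at 2.08 kb, and on chromosome 15 from 76161218 to 76162305, with a region of height 87 at 2.69 kb. For right-skewed regions the 3 closest neighbours were all on the long side. They lay 3.89 kb from the region on chromosome 2 at 143990244 to 143992002, 4.02 kb from that on chromosome 11 at 101120446 to 101122321 and 4.72 kb from that on chromosome 6 at 83070572 to 83072086, and these neighbours had heights of 29, 88 and 114.

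Each interval of the list holds exactly 1 summit, with 0 exceptions among 9095, so a second maximum inside a member, if there was one, is not recorded. The closest summits of consecutive regions were 672 bp apart, and the long side exceeded this distance in 208 of the 210 members. The rule favours long sides, and the median long side of other regions also exceeded this distance. It was 741 bp over all regions of height 45 to 92 and 685 bp over the whole list. The count is therefore a description of lengths and says nothing about a second maximum. What the signal looked like along the long side was not analysed here.

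In 5 places 2 consecutive regions of the list were both members, and in all 5 the pair was of opposite skew. In 3 of them the long sides faced each other. These were on chromosome 2, where the regions at 164704691 to 164706017 and 164736159 to 164737902 had heights of 49 and 86 and lay 30.1 kb apart, on chromosome 7 at 148041649 to 148043824 and 148067214 to 148068632, 23.4 kb apart, and on chromosome 11 at 100180508 to 100182324 and 100275366 to 100277594, 93.04 kb apart. In the other two the short sides faced each other. On chromosome 4 the regions at 114658932 to 114660297 and 114671974 to 114673628, with heights of 58 and 56, were 11.7 kb apart, and on chromosome 10 the 2 regions of height 45 named above were 139.8 kb apart. These pairs were picked out after their values were seen, and 5 are too few to say how often opposite skews meet.

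Off-centre regions were found on all 20 chromosomes of the list. Chromosome 11 held the most, 21, followed by chromosome 7 with 19. As a share of a chromosome's regions of height 45 to 92, values ran from 1.72% on X (1 of 58, exact 95% interval 0.044 to 9.24) and 2.52% on chromosome 14 (3 of 119, 0.523 to 7.19) to 8.21% on chromosome 3 (16 of 195, 4.76 to 13.0) and 8.51% on chromosome 10 (12 of 141, 4.48 to 14.4). On none of the 20 did the interval leave out the 5.85% found over all, so no chromosome stood apart beyond counting error. By difference in number the sides were most uneven on chromosome 3, with 14 left-skewed against 2 right-skewed regions, on chromosome 17, with 12 against 3, and on chromosome 5, with 12 against 4. By share, chromosome 1, with 7 against 1, was as uneven as chromosome 3. Chromosomes 7 and 11 leaned slightly the other way, with 8 against 11 and 10 against 11.

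**Figure D5:**
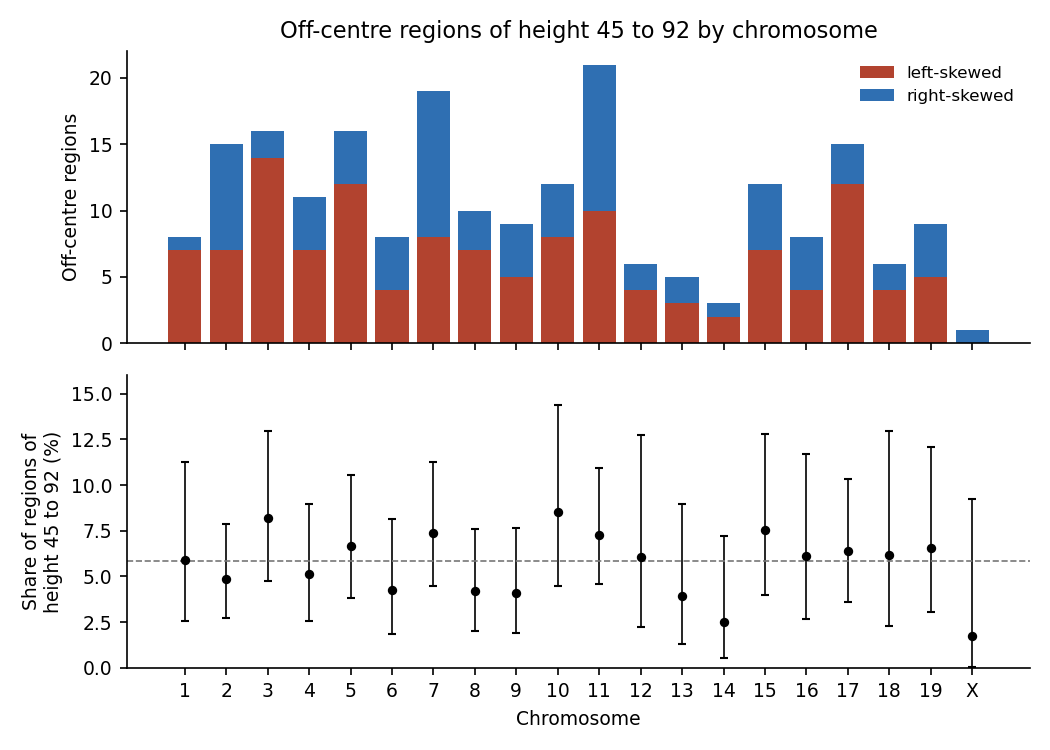
Top, number of off-centre regions on each chromosome, left-skewed in red and right-skewed in blue. Bottom, their share of the chromosome's regions of height 45 to 92 (%), as points with exact 95% intervals, and a dashed line at the 5.85% found over all chromosomes, which every interval includes.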

How the data were processed

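The deposited file of the NELF-B library holds 3 tracks of 9095 entries, per the file headers: summits with a height, intervals and active regions. The height is a score in the authors' own unit, all whole numbers, and other deposited columns are positions. MACS, a peak caller, is named in the submitters' processing notes. How reads were aligned, the genome build, the threshold and the role of the input are not given in the sources at hand. Summits and intervals were joined by order; all 9095 summits lay inside their interval. Summit position was (summit − start) / (end − start). Printed starts were raised by 1, and summits are as deposited.

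A total of 88 regions on 7 chromosomes start past the last gene in the GRCm38.p6 table, so no gene or sequence was read by position.

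Shares have exact Clopper-Pearson 95% intervals and medians exact binomial order-statistic intervals; both treat regions as independent. Position, neighbour and interval code was checked on simulated layouts. Named regions are, per direction, the 3 widest, tallest, most lopsided and closest to a neighbour, and 2 on either side of each limit; pairs of consecutive members were added later. Members, lists and comparisons were chosen with earlier results of these data known. Computation ran in Python (3.11.15) with pandas (2.3.3), SciPy (1.17.1) and NumPy (2.4.6), and plots were drawn with matplotlib (3.10.9).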

Additional observations from a re-analysis of the deposited data

How the results depend on the processing

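Over 11 results, 161 alternative values were computed. Of these, 123 stayed inside the interval of the main value (for the count, within 1.5 times), 37 moved out and 1 reversed. Some could not move, such as the neighbour share of centred regions when only the off-centre limits changed. A reversal was recorded only for the left-skewed share and the width ratio. The tally is therefore no measure of stability. Moving the summits, centring the limits on the median, leaving out chromosome 3 and keeping only wide regions were chosen after seeing the data. The left-skewed share was 53.1% with summits moved 16 bp and reversed to 48.7% with limits about the median. With limits of 0.20 and 0.80 the off-centre share was 1.59%, the width ratio 1.66 and the share with a neighbour within 10 kb 22.8%, and the long-side share of right-skewed members turned from 43.8% to 61.1%; with 0.30 and 0.70 the first 2 were 15.4% and 1.38. The width ratio was 1.26 for heights under 45 and 1.70 over 92, where the height ratio was 1.05 and the neighbour share 25.9% (24.7% in centred regions of that height). Without the widest 5% of regions, the off-centre share was 4.07% and the width ratio 1.32; for regions over 1500 bp they were 16.4% and 1.14. The neighbour share was 6.19% within 5 kb, 35.7% within 20 kb and 62.9% within 50 kb, by construction, and the long-side share 61.8% for neighbours within 10 kb. Apart from distances and limits, the cause was not tested. With 1 library, leaving out a replicate could not be done, and no paired analysis was possible because the input library contributed no values. The unknown depth limits every height and edge.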
